A study of Mus musculus with 6 samples.

Results

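ERK feedback and output genes were followed in ErbB2-driven mouse mammary tumors labelled fx/fx or wt/wt for CdGAP. The members were 10 genes chosen by name, Dusp4, Dusp5, Dusp6, Spry1, Spry2, Spry4, Spred1, Spred2, Etv4 and Etv5, found by symbol among the 54232 gene rows of each count file. All 10 were present, and all 10 passed the filter on low counts. RNA was sequenced from 3 NIC+, CdGAP fx/fx tumors (libraries fx1, fx2 and fx3) and 3 NIC+, CdGAP wt/wt tumors (wt1, wt2 and wt3). NIC mice carry an activated ErbB2 (Neu) oncogene and Cre recombinase on a single transcript under the mouse mammary tumor virus promoter, so both genotypes carry the oncogene and Cre. CdGAP is the protein of Arhgap31 and inactivates Cdc42 and Rac1, which are small GTPases. Cre is made only in cells where that promoter is active, so a Cre-dependent change of the gene would arise only in those cells. Which cells of these tumors made Cre was not measured. Neither age nor animal is labelled, and whether each tumor had its own mouse is not stated, so every p below reflects the spread among these 6 libraries, which may be technical.

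ErbB2 and other receptor tyrosine kinases switch on Ras, which starts the kinase cascade Raf, MEK and ERK. Active ERK induces genes whose products damp the same cascade. The dual-specificity phosphatases encoded by Dusp4, Dusp5 and Dusp6 remove phosphate from ERK, Sprouty proteins block the step between receptor and Raf, and Spred proteins bring neurofibromin to the membrane to inactivate Ras. Etv4 and Etv5 encode transcription factors of the PEA3 group of the ETS family, which lie on the output side of the pathway and are known to be abundant in mammary tumors driven by ErbB2. Levels of these messages are therefore used as a readout of ERK output, although counts of RNA measure neither ERK phosphorylation nor protein.

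Total counts per library were between 36732137 and 53606276, and the members took between 54463 (wt2) and 128298 (fx1) of them, so counting error was small beside the differences between libraries. Levels are given as CPM, counts scaled to a common TMM-adjusted library size, and as CPM per kilobase of exon where genes are compared with each other. Arhgap31 was lower in each fx/fx library than in each wt/wt library, at 156, 44.1 and 116 CPM in fx1, fx2 and fx3, against 664, 433 and 549.8 CPM in wt1, wt2 and wt3. The log2 fold change of -2.38 (SE 0.45) had an edgeR adjusted p of 0.153 and a DESeq2 adjusted p of 4.7e-05. Mitochondrial genes took between 1.81% and 2.93% of counts in the 6 libraries. Ribosomal protein genes took 2.09%, 3.74% and 3.68% in fx1, fx2 and fx3, against 3.63%, 4.65% and 4.2% in wt1, wt2 and wt3. The luminal epithelial markers fitted the labelled tissue, with all 8 detected in each library and summed levels of 3828 to 5165 CPM in fx/fx and 3775 to 4523 CPM in wt/wt.

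Promoter windows of 4 members are shown because they carry the contrast between members described here: Dusp5 and Spred2, the pair that was lowest in fx1, Dusp6, the most abundant member, and Spry1, a member whose genotypes did not overlap. Each window runs from 250 bases before the transcription start to 50 bases after it and comes from RefSeq on GRCm38.p6. Of the 10 members, 7 had a window that was used, and Dusp4, Spry4 and Etv4 are named only. Capitals mark matches, on either strand, to the CArG box bound by serum response factor, to the PEA3-type ETS hexamer AGGAAG, to the AP-1 site TGANTCA and to the cyclic AMP response element TGACGTCA.
Dusp5, chr19:53528895-53529194, plus strand: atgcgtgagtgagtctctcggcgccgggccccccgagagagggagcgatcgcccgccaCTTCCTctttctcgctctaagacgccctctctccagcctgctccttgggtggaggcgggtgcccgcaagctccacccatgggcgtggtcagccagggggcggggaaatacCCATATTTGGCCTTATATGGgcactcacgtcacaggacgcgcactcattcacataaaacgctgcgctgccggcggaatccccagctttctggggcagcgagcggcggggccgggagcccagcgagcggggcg
Spred2, chr11:19924192-19924491, plus strand: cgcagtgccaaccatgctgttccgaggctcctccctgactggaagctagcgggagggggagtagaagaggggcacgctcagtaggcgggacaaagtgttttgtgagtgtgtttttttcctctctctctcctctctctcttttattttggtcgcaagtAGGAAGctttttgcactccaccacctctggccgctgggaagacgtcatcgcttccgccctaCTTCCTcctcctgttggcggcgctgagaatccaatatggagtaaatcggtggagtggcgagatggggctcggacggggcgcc
Dusp6, chr10:99262981-99263280, plus strand: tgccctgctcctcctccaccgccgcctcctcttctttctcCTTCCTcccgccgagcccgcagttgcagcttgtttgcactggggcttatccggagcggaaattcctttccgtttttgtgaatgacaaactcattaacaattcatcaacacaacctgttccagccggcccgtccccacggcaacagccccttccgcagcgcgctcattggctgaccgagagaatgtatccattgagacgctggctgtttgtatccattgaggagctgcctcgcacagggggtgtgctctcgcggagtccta
Spry1, chr3:37639697-37639996, plus strand: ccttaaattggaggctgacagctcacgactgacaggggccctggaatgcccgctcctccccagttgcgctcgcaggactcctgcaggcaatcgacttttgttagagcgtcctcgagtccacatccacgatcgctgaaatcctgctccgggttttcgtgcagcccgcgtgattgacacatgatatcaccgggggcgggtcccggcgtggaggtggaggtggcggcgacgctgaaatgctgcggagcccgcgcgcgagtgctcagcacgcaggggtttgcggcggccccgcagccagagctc

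The Dusp5 window held 2 CArG boxes side by side, CCATATTTGG from -82 to -73 and CCTTATATGG from -72 to -63 relative to the start site, which read as a single run of 20 capitals. No other member window among those used held one, and 1.63% of the 32851 windows of that length in the RefSeq table held at least 1. Dusp5 and Dusp6 also held 1 ETS hexamer each, Spred2 held 2 and 1 Etv5 window held 1. So 4 of the 8 member windows used had one, where 35.4% of all windows held at least 1. Neither the AP-1 site nor the cyclic AMP response element occurred in any of the 8 member windows used, against 7.81% and 1.79% of all windows. The Spry1 window shows no capitals, since it held no match. These are letter matches in a short window and do not show binding of a factor.

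Across the comparison, all 10 members had a log2 fold change (fx/fx over wt/wt) above 0, between 0.02 for Dusp5 and 0.85 for Dusp4, with a median of 0.37. Over the 16752 genes tested the median was -0.004 and 49.6% of genes were above 0. No member passed at an adjusted p under 0.05: edgeR called 0 of 10 (0% of all genes tested), DESeq2 called 0 of 10 (4.61% of the genes it tested, 2.89% higher and 1.72% lower) and limma-voom called 0 of 10 (0 genes over all). At an unadjusted edgeR p under 0.05 there were 3 members, Dusp4, Spry1 and Spry4, all higher in fx/fx, against 8.18% of all genes tested in that direction, 6.04% in the other and 14.2% in both. The fx/fx libraries lay wholly above the wt/wt libraries for 3 members, Dusp4, Spry1 and Spred1, as they did for 9.74% of all genes tested; they lay wholly below for 0 members and 9.93% of all genes, which makes 19.7% in both directions. Leaving out 1 library can only keep or add members here. The count was then 5 without fx1 (12.8% of all genes higher), 5 without fx2 (18.2%), 3 without fx3 (15.3%), 4 without wt1 (12.9%), 3 without wt2 (15%) and 4 without wt3 (15.1%). The library wt2 bears on these values. Without wt2 the median was 0.22 and 8 of 10 members stayed above 0, with Dusp6 at -0.16 and Spry2 at -0.037. Without wt3 the median was 0.58.

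**Figure D1:**
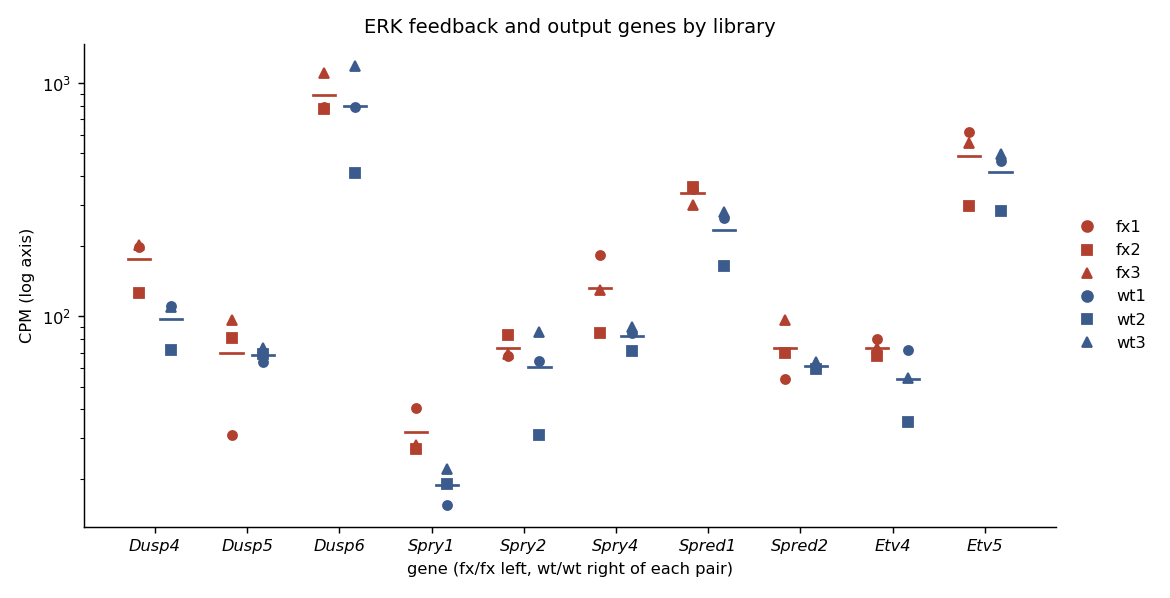
CPM on a log axis for the 10 genes, fx/fx in red on the left and wt/wt in blue on the right of each pair, with 1 point per library and a bar at the mean of 3. The red points lie wholly above the blue points for Dusp4, Spry1 and Spred1, and wt2 (blue square) is the lowest of the 6 libraries for 7 genes.

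Dusp4 (ENSMUSG00000031530, chromosome 8, 34807297 to 34819894, GRCm38, plus strand) encodes a nuclear phosphatase of ERK and other MAP kinases. It measured 199, 126 and 203 CPM in fx1, fx2 and fx3, against 111, 71.5 and 109.6 CPM in wt1, wt2 and wt3. The genotypes did not overlap, and fx2 was the nearest of the fx/fx libraries to wt/wt. The means were 176 ± 43.4 CPM in fx/fx and 97.3 ± 22.3 CPM in wt/wt (SD, n = 3 each), a 1.81-fold difference with a 95% interval of 1.18 to 2.76. An exact permutation test of the 20 orderings, 2-sided, returned p = 0.1, and 3 libraries against 3 can give none smaller; the edgeR adjusted p was 0.237.

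Dusp5 (ENSMUSG00000034765, chromosome 19, 53529109 to 53542431, plus strand) encodes a nuclear phosphatase specific for ERK. It measured 30.9, 80.4 and 96.9 CPM in fx1, fx2 and fx3, against 63.5, 69.1 and 73.3 CPM in wt1, wt2 and wt3. In fx1 it was the lowest of all 6 libraries, while fx2 and fx3 were above each wt/wt library. The SD was 34.3 CPM over fx/fx and 4.91 CPM over wt/wt (n = 3 each), around means of 69.4 CPM in fx/fx and 68.6 CPM in wt/wt. The log2 fold change of 0.02 (SE 0.38; edgeR adjusted p = 0.992) was 0.36 without fx1 and -0.28 without fx3, so its sign rested on single libraries.

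Dusp6 (ENSMUSG00000019960, chromosome 10, 99263231 to 99267489, plus strand) encodes a cytoplasmic phosphatase specific for ERK and is among the most used messages for ERK output. It measured 795, 777 and 1103 CPM in fx1, fx2 and fx3, against 794, 413 and 1187 CPM in wt1, wt2 and wt3. The genotypes overlapped, and wt/wt held both the lowest and the highest library. The means were 892 ± 183 CPM in fx/fx and 798 ± 387 CPM in wt/wt (SD, n = 3 each; log2 fold change 0.16, SE 0.38, 95% interval -0.73 to 1.05, edgeR adjusted p = 0.890). As a ratio, the 95% interval runs from 0.602 to 2.07. The log2 fold change was 0.000965 without fx3, 0.25 without fx2, 0.55 without wt3 and -0.16 without wt2.

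The 3 phosphatase genes thus differed among themselves, with Dusp4 apart between the genotypes, Dusp6 spread mostly among wt/wt tumors and Dusp5 low in a single fx/fx tumor. Differences between these genes were not tested.

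Spry1 (ENSMUSG00000037211, chromosome 3, 37639947 to 37644598, plus strand) encodes a Sprouty inhibitor of receptor tyrosine kinase signalling. It measured 40.5, 26.9 and 28.1 CPM in fx1, fx2 and fx3, against 15.6, 19.2 and 22.2 CPM in wt1, wt2 and wt3. The genotypes did not overlap, and fx1 stood above the other two fx/fx libraries. The means were 31.8 ± 7.54 CPM in fx/fx and 19.0 ± 3.33 CPM in wt/wt (SD, n = 3 each), a 1.68-fold difference with a 95% interval of 1.14 to 2.47 (exact permutation p = 0.1, edgeR adjusted p = 0.247).

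Spry2 (ENSMUSG00000022114, chromosome 14, 105891947 to 105896819, minus strand) encodes a second Sprouty inhibitor. It measured 67.6, 83.6 and 69.3 CPM in fx1, fx2 and fx3, against 64.5, 31.0 and 85.9 CPM in wt1, wt2 and wt3. The fx/fx libraries lay between the extremes of wt/wt. Spry2 had a log2 fold change of 0.28 (SE 0.34; edgeR adjusted p = 0.767), which was -0.037 without wt2, 0.18 without fx2 and 0.61 without wt3.

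Spry4 (ENSMUSG00000024427, chromosome 18, 38586268 to 38601268, minus strand) encodes a Sprouty inhibitor as well. It measured 183, 85.2 and 129.6 CPM in fx1, fx2 and fx3, against 85.2, 71.4 and 89.7 CPM in wt1, wt2 and wt3. The library fx2 was level with wt1 and below wt3, while fx1 and fx3 were above each wt/wt library. The log2 fold change was 0.69 (SE 0.28, 95% interval 0.04 to 1.34) with an unadjusted edgeR p of 0.0403 and an edgeR adjusted p of 0.327. Without fx1 it was 0.38 and without fx2 it was 0.93.

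Spred1 (ENSMUSG00000027351, chromosome 2, 117121374 to 117182279, plus strand) encodes a Spred protein that recruits neurofibromin. It measured 351, 360.1 and 299 CPM in fx1, fx2 and fx3, against 263, 164 and 279.5 CPM in wt1, wt2 and wt3. The genotypes did not overlap, although fx3 lay close to wt3. The means were 337 ± 32.9 CPM in fx/fx and 236 ± 62.5 CPM in wt/wt (SD, n = 3 each), a 1.43-fold difference with a 95% interval of 0.97 to 2.1 (exact permutation p = 0.1, edgeR adjusted p = 0.384). Without wt2 the log2 fold change was 0.31, against 0.52 with all 6 libraries.

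Spred2 (ENSMUSG00000045671, chromosome 11, 19924375 to 20024026, plus strand) encodes the related Spred2 protein. It measured 53.7, 69.4 and 96.6 CPM in fx1, fx2 and fx3, against 60.2, 59.5 and 64.0 CPM in wt1, wt2 and wt3. As for Dusp5, fx1 was the lowest library of all and fx2 and fx3 were above each wt/wt library. The log2 fold change was 0.26 (SE 0.23; edgeR adjusted p = 0.668), 0.43 without fx1 and 0.03 without fx3.

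Etv4 (ENSMUSG00000017724, chromosome 11, 101769742 to 101785371, minus strand) encodes the PEA3 factor. It measured 79.7, 67.4 and 73.0 CPM in fx1, fx2 and fx3, against 71.5, 35.2 and 54.5 CPM in wt1, wt2 and wt3. The fx/fx libraries were close together, and wt1 lay among them. Etv4 had a log2 fold change of 0.45 (SE 0.26; edgeR adjusted p = 0.488), which was 0.22 without wt2 and 0.71 without wt1.

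Etv5 (ENSMUSG00000013089, chromosome 16, 22381309 to 22439719, minus strand) encodes the related PEA3-group factor ERM and lies 16.2 Mb from Arhgap31. It measured 615, 297 and 553 CPM in fx1, fx2 and fx3, against 464, 283 and 497 CPM in wt1, wt2 and wt3. Each genotype held 1 low library, fx2 and wt2, and the other two of each genotype were higher. The log2 fold change was 0.24 (SE 0.34; edgeR adjusted p = 0.805), 0.49 without fx2, 0.37 without wt3, 0.16 without fx3 and 0.02 without either fx1 or wt2.

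**Figure D2:**
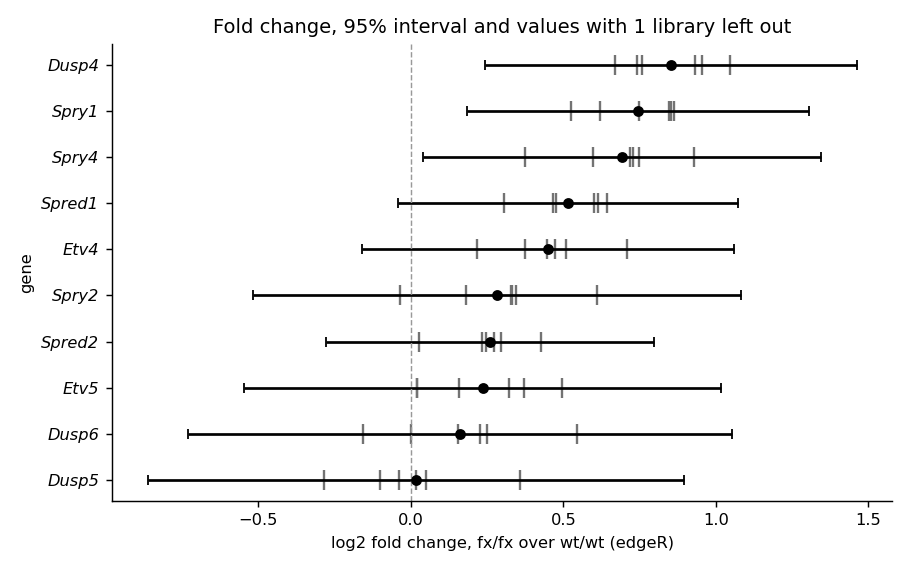
Log2 fold change of fx/fx over wt/wt for the 10 genes (black point, edgeR) with its 95% interval, and the 6 values with 1 library left out (grey ticks). Intervals of Dusp4, Spry1 and Spry4 lie above 0, all 6 ticks are above 0 for Dusp4, Spry1, Spry4, Spred1, Spred2, Etv4 and Etv5, and ticks of Dusp5, Dusp6 and Spry2 fall on both sides.

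Libraries of 1 genotype differed widely, and the genotypes overlapped for 7 of the 10 members. The library wt2 was the lowest of all 6 for 7 members, Dusp4, Dusp6, Spry2, Spry4, Spred1, Etv4 and Etv5, and the lowest of wt/wt for 8. The library wt3 was the highest of wt/wt for 8. Among fx/fx, fx1 was the highest of all 6 libraries for Spry1, Spry4, Etv4 and Etv5 and the lowest for Dusp5 and Spred2, while fx2 was the lowest of fx/fx for 6 members. The median over members of log2 CPM minus the wt/wt mean was 0.61, 0.31 and 0.54 in fx1, fx2 and fx3, against 0.16, -0.45 and 0.22 in wt1, wt2 and wt3. Erbb2 measured 3742, 1715 and 2290 CPM in fx1, fx2 and fx3, against 1683, 2360 and 950 CPM in wt1, wt2 and wt3, with a log2 fold change of 0.63 (SE 0.42; edgeR adjusted p = 0.546). Within fx/fx it had the same order as the member medians, highest in fx1 and lowest in fx2, and within wt/wt the opposite order, highest in wt2 and lowest in wt3. Its part in the members' levels was not tested. The counts do not separate the endogenous gene from the oncogene.

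**Figure D3:**
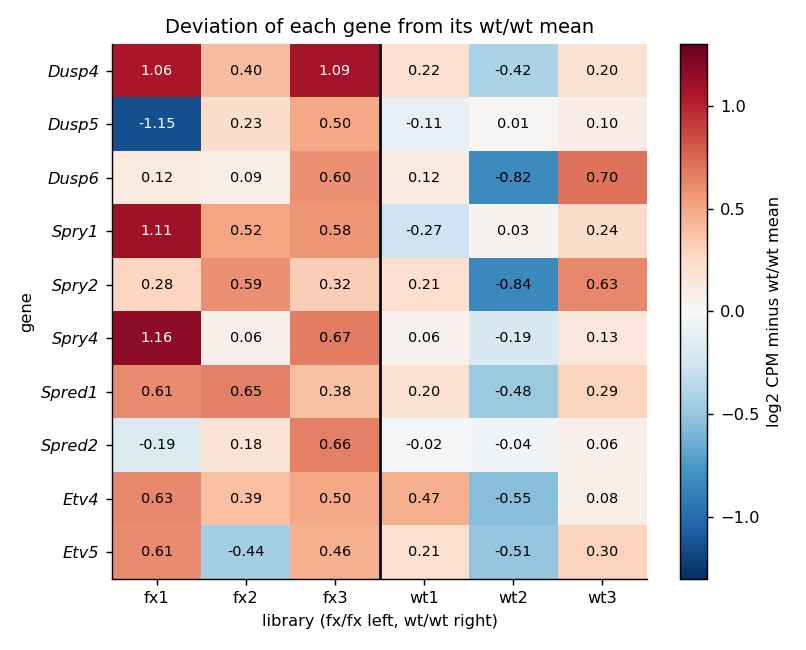
Log2 CPM of each gene minus its wt/wt mean (colour and number), with genes down the page and libraries across it, fx/fx left of the line and wt/wt right of it. The wt2 column is mostly blue, down to -0.84 for Spry2, and fx1 runs from -1.15 for Dusp5 to 1.16 for Spry4.

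Over the 6 libraries, Pearson's r of log2 CPM between members was above 0 in 39 of 45 pairs, with a median of 0.48; other gene pairs were not set beside it, so it is not read as particular to the members. The 6 pairs below 0 all included Dusp5. The most alike pair was Dusp4 and Spry4 (r of 0.90), and Dusp5 was most like Spred2 (r of 0.76). These values describe 6 shared libraries of both genotypes and are given with no test. Outside the members, the genes most like Dusp6 among 10749 protein-coding genes with a mean of at least 5 CPM were Msto1, Cdv3 and Wdr1, with r of 0.99, 0.989 and 0.988 over the 6 libraries. Those most like Spry4 were Cd81, Cyb5r3 and Glmp (r of 0.991 to 0.995), and those most like Etv4 were D17Wsu92e, Sort1 and Trove2 (r of 0.988 to 0.994). Taking the highest r of 10749 candidates over only 6 libraries gives high values by itself. No relation to the members is therefore read from them.

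Per kilobase of exon, Dusp6 was the most abundant member in each of the 6 libraries and Etv5 the next in each. Dusp6 averaged 285 ± 58.5 CPM per kilobase in fx/fx and 255 ± 124 in wt/wt (SD, n = 3 each), above 99.2% of the 13916 protein-coding genes tested. Etv5 averaged 119 ± 41.1 CPM per kilobase in fx/fx and 101 ± 28.1 in wt/wt. Dusp6 alone made up 38.2% to 46.4% of the members' summed level per kilobase in fx/fx and 38.7% to 53.3% in wt/wt. Below these came Dusp4, Spred1, Spry2, Dusp5, Spry4, Etv4 and Spred2, with means over all libraries of 49.8 down to 14.6 CPM per kilobase. Spry1 was last at 8.74, above 59.8% of protein-coding genes. The ranges over 6 libraries overlapped for each pair of neighbours in this order. Within libraries, Dusp6 stood above Etv5, Etv5 above Dusp4 and Spred1 above Spry2 in 6 of 6, but Dusp4 stood above Spred1, Spry2 above Dusp5 and Spry4 above Etv4 in 4 of 6, and those neighbours did not differ beyond their spread.

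Genes near some members shifted in some libraries, and the members did not always shift with them. For each member the median deviation from the wt/wt mean of expressed protein-coding genes within 10 Mb was taken in the same library. Around Dusp6 (40 genes) it was -0.64 in fx1 and around Spred2 (44 genes) -0.63 in fx1, while it stayed between -0.10 and 0.13 in the other libraries for both. In fx1, Dusp6 itself lay at 0.12 and Spred2 itself at -0.19. Around Spry2 (17 genes) the median was -0.31, 0.41 and -0.41 in fx1, fx2 and fx3, against 0.30, -0.74 and 0.34 in wt1, wt2 and wt3. Spry2 itself was 0.28, 0.59 and 0.32 in fx1, fx2 and fx3, against 0.21, -0.84 and 0.63 in wt1, wt2 and wt3. Around Spred1 (108 genes) the median was 0.41 in fx2, where Spred1 itself was 0.65, and elsewhere between -0.08 and 0.10. Around the other 6 members the median lay between -0.10 and 0.16 in all libraries, so the low Dusp5 in fx1 (-1.15) stood among neighbours at 0.12.

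With these neighbour medians subtracted, the log2 fold change was 0.43 for Dusp6, 0.46 for Spry2, 0.39 for Spred2 and 0.41 for Spred1. These are differences of mean log2 CPM from limma-trend, a scale other than that of the edgeR values above. On the log2 CPM scale and without the subtraction, limma-voom gave 0.27, 0.39, 0.21 and 0.55 for the same genes in that order. The subtraction raises a member that did not share a fall of its neighbours, as for Dusp6 in fx1, which went from 0.12 to 0.75. With the subtraction, 0 of 10 members passed (limma-trend, smallest adjusted p = 0.24), and 0 genes were called over all genes in that fit. After the subtraction, Spred2 lay at 0.43, 0.21 and 0.54 in fx1, fx2 and fx3, against -0.06, 0.05 and 0.01 in wt1, wt2 and wt3, and its genotypes did not overlap on that scale. Nor did those of Spry4, with fx/fx values of 0.14 to 1.06 and wt/wt values of -0.14 to 0.07. Spred1 lost its separation, since fx2 at 0.25 lay below wt3 at 0.27. On this scale 4 members lay wholly higher in fx/fx, Dusp4, Spry1, Spry4 and Spred2, as did 10% of the genes with enough neighbours. Spry2 lay at 0.56, 0.14 and 0.69 in fx1, fx2 and fx3, against -0.12, -0.14 and 0.26 in wt1, wt2 and wt3, with fx2 below wt3. What shifts the neighbours was not tested.

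**Figure D4:**
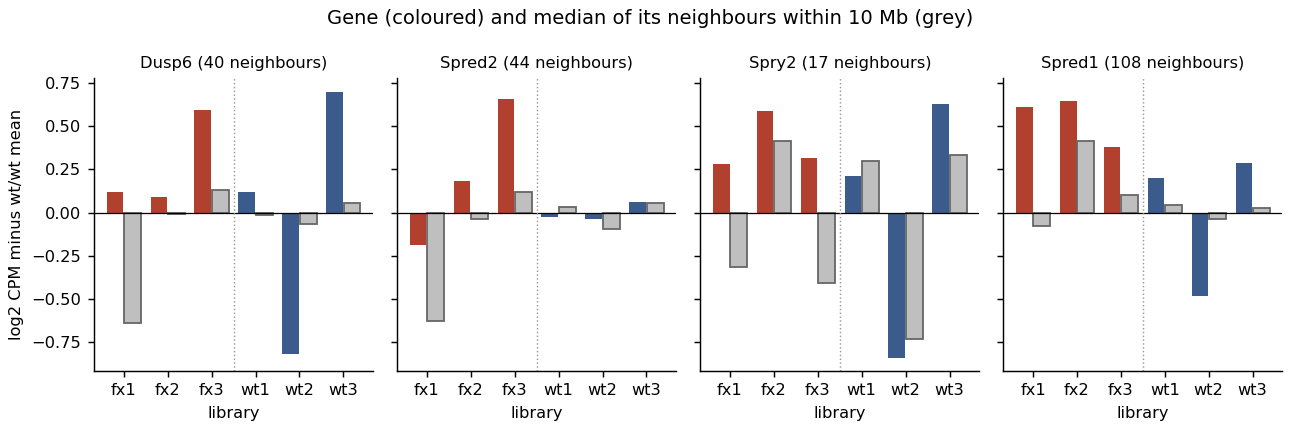
Log2 CPM minus the wt/wt mean for 4 genes (coloured bars, fx/fx red and wt/wt blue) and the median of their expressed protein-coding neighbours within 10 Mb (grey bars), by library. Neighbours of Dusp6 and Spred2 are low in fx1, those of Spry2 are low in wt2, fx1 and fx3, and those of Spred1 are high in fx2.

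Further genes of the pathway, listed by role, showed 0 edgeR calls. DESeq2 called 1 of 8 other ETS factors higher and 1 of 23 genes of the Ras to ERK cascade lower. Of 11 other ERK output genes it called 1 higher and 1 lower. Over all genes it tested, DESeq2 called 4.61% (2.89% higher and 1.72% lower). Among the 7 other MAP kinase phosphatases, 4 were higher and 3 lower in fx/fx (median log2 fold change 0.01) and neither tool called any. Dusp1, an immediate early phosphatase of stress kinases and ERK, averaged 17.9 ± 3.11 CPM in fx/fx and 9.50 ± 3.70 CPM in wt/wt (n = 3 each; log2 fold change 0.92, edgeR adjusted p = 0.276). Dusp8, which acts mainly on stress kinases, averaged 43.1 ± 7.25 CPM in fx/fx and 60.1 ± 6.01 CPM in wt/wt (n = 3 each; log2 fold change -0.48, edgeR adjusted p = 0.323). Of the remaining Sprouty and Spred genes, Spred3 averaged 11.8 ± 3.31 CPM in fx/fx and 5.36 ± 1.98 CPM in wt/wt (n = 3 each; edgeR adjusted p = 0.254), and Spry3 was below 1 CPM in each library, at 0.546 ± 0.0805 CPM in fx/fx and 0.369 ± 0.326 CPM in wt/wt (edgeR adjusted p = 0.813 by the fit across genes).

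All 8 other ETS factors had a log2 fold change above 0, with a median of 0.17. Erf, an ETS repressor that ERK exports from the nucleus, measured 72.2, 60.3 and 60.3 CPM in fx1, fx2 and fx3, against 28.9, 34.7 and 44.2 CPM in wt1, wt2 and wt3. DESeq2 called it (adjusted p = 0.0443) and edgeR did not (adjusted p = 0.186). The DESeq2 call was lost without fx1, fx3, wt1 or wt2. Etv1, the remaining PEA3-group factor, averaged 352 ± 50.6 CPM in fx/fx and 339.7 ± 78.0 CPM in wt/wt (n = 3 each; edgeR adjusted p = 0.946).

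In the Ras to ERK cascade, 16 of 23 genes were higher and 7 lower (median 0.18). The lowest was Rps6ka1, which encodes the ERK-activated kinase RSK1. It measured 92.99, 211 and 83.9 CPM in fx1, fx2 and fx3, against 367, 334 and 444 CPM in wt1, wt2 and wt3 (log2 fold change -1.56 with an SE of 0.37; adjusted p = 0.185 by edgeR and 0.00813 by DESeq2). The DESeq2 call was lost without fx1, wt1 or wt3, while without fx2 the DESeq2 log2 fold change was -2.12 (adjusted p = 1.4e-12). Leaving out fx2 also raised the DESeq2 calls over all genes from 831 to 1622. Rps6ka1 lies on chromosome 4, where neighbours within 10 Mb had medians of -0.75, -0.22 and -0.84 in fx1, fx2 and fx3, against -0.05 to 0.03 in wt/wt. Its log2 CPM lay at -2.03, -0.85 and -2.17 in fx1, fx2 and fx3 relative to the wt/wt mean. With the neighbour medians subtracted, the difference of mean log2 CPM was -1.08 (limma-trend).

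Of 11 other ERK output genes, 7 were higher and 4 lower (median 0.17). Egr1, an immediate early transcription factor, measured 98.7, 119 and 96.5 CPM in fx1, fx2 and fx3, against 43.0, 72.2 and 53.3 CPM in wt1, wt2 and wt3 (log2 fold change 0.90 with an SE of 0.23; adjusted p = 0.193 by edgeR and 0.0406 by DESeq2). The DESeq2 call was lost without fx1, fx2, fx3, wt1 or wt3. Epha2, an ephrin receptor induced by ERK, went the other way. It measured 83.2, 295 and 36.7 CPM in fx1, fx2 and fx3, against 643, 539 and 551 CPM in wt1, wt2 and wt3 (log2 fold change -2.06 with an SE of 0.69; adjusted p = 0.262 by edgeR and 0.0293 by DESeq2). Its DESeq2 call was lost without fx1 or any wt/wt library, while without fx2 the DESeq2 log2 fold change was -3.27 (adjusted p = 2.2e-12). DESeq2 called 1622 genes over all without fx2, against 831 with all 6 libraries. Epha2 lies on chromosome 4 too, with neighbour medians of -0.70, -0.45 and -0.80 in fx1, fx2 and fx3. Its log2 CPM lay at -2.79, -0.97 and -3.97 in those libraries relative to the wt/wt mean. With the neighbour medians subtracted, the difference of mean log2 CPM was -1.93 (limma-trend), on a scale other than that of the edgeR value of -2.06. The log2 fold changes of Phlda1, Ccnd1, Myc and Fos, other messages used for ERK output, were -0.23, 0.43, 0.17 and 0.01, with edgeR adjusted p between 0.625 and 0.998.

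Markers of non-epithelial cells differed between the same libraries, and several members are also expressed in stromal and endothelial cells. In a bulk sample, fewer cells of a type and less RNA per cell cannot be told apart. All 8 fibroblast markers were detected, with summed levels of 801 to 1465 CPM in fx/fx and 284 to 498 CPM in wt/wt. Most of that sum was collagen: Col1a1, Col1a2 and Col3a1 averaged 291, 283 and 395 CPM in fx/fx, against 117, 102 and 132 CPM in wt/wt. DESeq2 called 7 of the 8 higher in fx/fx, against 2.89% of all genes, and edgeR called 0. The exception was Pdgfra, a receptor that marks fibroblasts, at 13.3 ± 1.74 CPM in fx/fx and 14.9 ± 3.11 CPM in wt/wt (SD, n = 3 each). DESeq2 also called 2 adipocyte markers and 1 each of the pericyte, basal, luminal and mast cell lists higher. All 6 pericyte markers were detected, summing to 359 to 417 CPM in fx/fx and 219 to 321 CPM in wt/wt, and the 8 basal or myoepithelial markers summed to 65.0 to 83.8 CPM in fx/fx and 37.1 to 44.5 CPM in wt/wt. These 3 sums did not overlap between the genotypes, nor did that of the 6 adipocyte markers, at 55.7 to 182 CPM in fx/fx and 16.6 to 45.5 CPM in wt/wt. Few genes made up much of each sum: Acta2 and Mylk of the basal, Notch3 of the pericyte and Fabp4 of the adipocyte sum. Mylk and Notch3 overlapped between the genotypes, Acta2 and Fabp4 did not. Singly, 2 of 8 basal, 4 of 6 pericyte and 3 of 6 adipocyte markers lay wholly higher in fx/fx, as did 9.74% of all genes tested. The 8 endothelial markers summed to 239, 209 and 119 CPM in fx1, fx2 and fx3, against 128, 103 and 125 CPM in wt1, wt2 and wt3, so fx3 overlapped wt/wt. The endothelial and pericyte sums were highest in fx1, as were Spry1, Spry4, Etv4, Etv5 and Erbb2, while Dusp5 and Spred2 were lowest there.

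Macrophage markers summed to 226 to 514 CPM in fx/fx and 272 to 451 CPM in wt/wt, with all 7 detected, and the 6 T cell markers summed to 2.91 to 9.11 CPM in fx/fx and 4.43 to 14.2 CPM in wt/wt. Of 5 mast cell markers, 3 passed the filter, and Ms4a2 and Fcer1a were at 0 counts in all wt/wt libraries. The list's sum, 559 to 733 CPM in fx/fx and 621 to 1381 CPM in wt/wt, was nearly all Kit, which averaged 633 CPM in fx/fx and 1011 CPM in wt/wt. The other 2 that passed went against Kit and lay wholly higher in fx/fx. Cpa3 averaged 0.843 CPM in fx/fx and 0.192 CPM in wt/wt, and Hdc 0.759 and 0.214 CPM. The sum is therefore not read as a mast cell level. No marker of the lists other than Ms4a2 and Fcer1a was at 0 in any library. The part of these cells in the levels of the members was not tested.

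**Figure D5:**
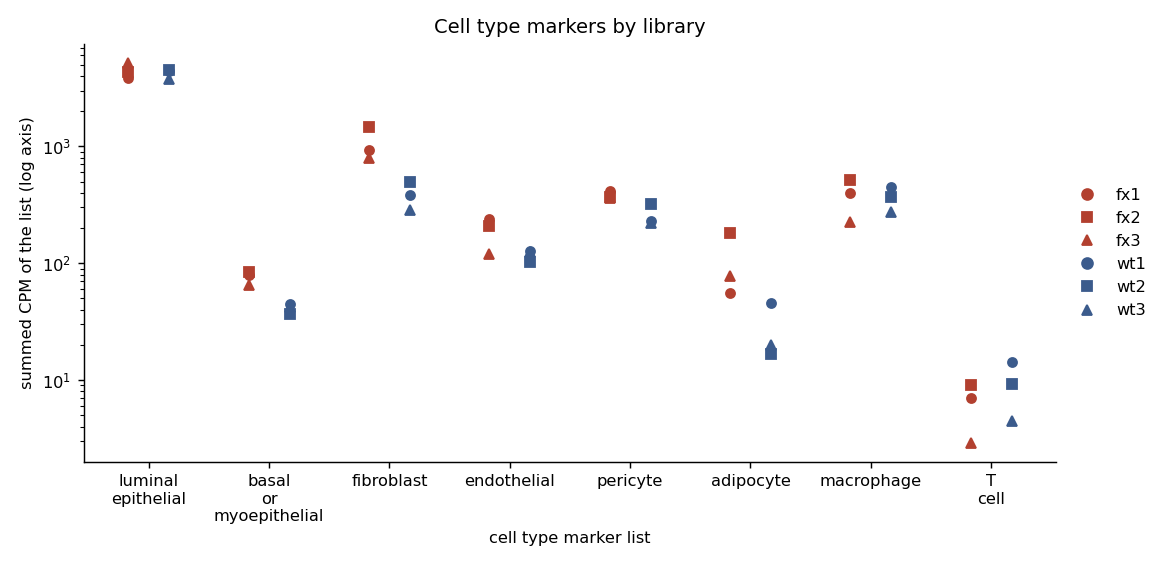
Summed CPM (log axis) of 8 marker lists, fx/fx in red on the left and wt/wt in blue on the right, with 1 point per library. The fibroblast, pericyte, basal and adipocyte sums do not overlap between genotypes, while the luminal, endothelial, macrophage and T cell sums do.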

How the data were processed

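Total RNA was sequenced from 6 tumors, 3 fx/fx and 3 wt/wt, grouped by the labels. The deposited values were raw counts of read pairs per gene, made by the authors with featureCounts 1.6.0 (paired ends, both ends aligned, chimeric pairs left out, reverse-stranded) on the Ensembl release 93 annotation of GRCm38, per the file headers. The submitters' processing notes name STAR 2.5.1b, featureCounts 1.4.6 and DESeq2 1.12.3. GENCODE M21 named 54165 of 54232 gene rows, and 0 rows named no gene.

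Genotypes were compared in R 4.3.3 with edgeR 4.0.16 (filterByExpr, TMM, robust quasi-likelihood test, 2-sided), with Benjamini-Hochberg adjustment over all genes tested and 0.05 as the threshold. SEs and 95% intervals come from that fit, and log2 CPM used a prior count of 2. DESeq2 1.42.0 and limma 3.58.1 were alternatives. The 20 orderings of 6 libraries gave the exact permutation tests. The steps were also run on simulated counts with known fold changes and no regional shifts, which checks the code and not the members' values. The 10 members and the gene lists were chosen with earlier results of these data known. Named beside the members were Arhgap31 and, per pathway list, up to 4 genes called by edgeR or DESeq2, or else the 2 with the smallest p. Further genes were named in addition, after their values were seen: Erbb2, Etv1, Phlda1, Ccnd1, Myc, Fos, Kit, Cpa3, Hdc, Pdgfra, Col1a1, Col1a2, Col3a1, Acta2, Mylk, Notch3, Fabp4, Ms4a2 and Fcer1a.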

Additional observations from a re-analysis of the deposited data

How the results depend on the processing

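Over 14 other settings for each of the 10 members, 130 of 140 log2 fold changes kept their direction, 10 changed sign and 0 passed an adjusted p of 0.05. Dusp5 changed sign with limma-voom (-0.15), library totals (-0.019), a minimum mean of 1 CPM (-0.0050), the replicate block (-0.13) and neighbour-centred values (-0.18). Limma-voom and the neighbour-centred fit both compare mean log2 CPM, so the sign change in the latter is not credited to the subtraction of neighbours. With 1 library left out Dusp5 ranged from -0.28 to 0.36, Dusp6 from -0.16 to 0.55 and Spry2 from -0.037 to 0.61. The cause was not tested. The median over members ranged from 0.22 to 0.58 with 1 library left out and from 0.34 to 0.45 otherwise. The number of members above 0 was between 8 and 10, and the number without overlap of genotypes between 3 and 5 with 1 library left out, which can only keep or raise it, with Dusp5 and Spred2 added without fx1 and Spry4 and Etv5 added without fx2. With neighbour-centred values it was 4, without Spred1 and with Spry4 and Spred2, an alternative chosen after seeing the data. Over all genes, edgeR called 0, with 2381 at an unadjusted p under 0.05; DESeq2 called 831, edgeR with no filter on low counts 38, and edgeR with 1 library left out between 0 and 2. Same-numbered libraries did not deviate together (r over genes -0.085, -0.095 and 0.057), so the numbers were not used as pairs; with the replicate block 0 genes and 0 members were called and the members' median was 0.45. Counts limit precision little for these genes: the floor of 3 counts is 0.0565 to 0.0803 CPM. 3 libraries per genotype limit it more.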
